A study of Mus musculus with 12 samples.

Results

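The interferon response genes described here were given as a list of 41 gene symbols. Of these, 40 were found among the 23354 genes that every library lists. The symbol Ifi27 was not analysed here, and the gene listed as Ifi27l1 is the mouse gene that RefSeq synonyms place under that name. The study profiled mRNA of stable J1 mouse embryonic stem cell lines in 12 libraries, 2 for each of 6 groups. In the overexpression arm the lines overexpressed histone H3.1 with lysine 9 replaced by methionine (H3.1K9M), H3.1 with lysine 36 replaced by methionine (H3.1K36M), or unmutated H3.1 (H3.1WT), which served as the control. In the knockdown arm the lines carried a hairpin against Suv39h1 (shSuv39h1) or Suv39h2 (shSuv39h2), which encode a pair of H3K9 methyltransferases, or the hairpin shNC, read here as the control. Every group grew on inactivated mouse embryonic fibroblast feeder cells, in serum with leukemia inhibitory factor. The sources used here do not say whether a line was 1 clone or a pool, whether the 2 libraries of a group came from separate cultures, or whether feeder cells were removed before extraction. The p-values therefore reflect only how far these libraries scatter, and that scatter may be technical.

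In interferon signalling, cells sense viral nucleic acid with RNA sensors such as those encoded by Ifih1 and Ddx58, and then secrete interferon. Type I interferon acts through a receptor and the kinases bound to it, which phosphorylate STAT2. A complex that holds STAT2 and IRF9 then binds the interferon-stimulated response element (ISRE) in the promoters of antiviral genes. Interferon gamma acts at a different element (GAS) and, through IRF1, induces guanylate-binding proteins and the immunoproteasome. Embryonic stem cells are known for a weak interferon response compared with fibroblasts, and the feeder cells here are fibroblasts.

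The libraries expressed stem cell markers throughout: all 10 markers of the stem cell list were above 0 in every library, and Pou5f1 ranged over 627 to 1007 FPKM (FPKM is a fragment count scaled by transcript length and library size). Markers of fibroblasts were present in all of them. Col1a1, a fibroblast collagen, was at 242 and 118 FPKM in H3.1K9M, 162 and 151 in H3.1K36M and 59.4 and 121 in H3.1WT, and at 77.7 and 47.5 in shSuv39h1, 108 and 87.8 in shSuv39h2 and 67.9 and 116 in shNC. The 30 fibroblast markers summed to between 511 FPKM (shSuv39h1 replicate 2) and 2206 FPKM (H3.1K9M replicate 1). Of 11 haematopoietic and macrophage markers none was at 0 in any library: the leukocyte gene Ptprc ranged over 0.0536 to 0.182 FPKM and the macrophage genes Lyz2 over 15.8 to 37.6, Cd68 over 6.53 to 19.3 and Laptm5 over 7.01 to 14.9. That list summed to 41.7 to 71.2 FPKM, and its part in the results was not tested. The shSuv39h1 libraries had 4.91 and 5.1 FPKM of Suv39h1, against 8.58 and 7.52 FPKM in the shNC libraries, and the shSuv39h2 libraries had 1.61 and 1.76 FPKM of Suv39h2, against 4.8 and 4.78 FPKM in the shNC libraries. H3.1K9M libraries differed most from each other, with an SD of 0.41 over genes for the log2 difference between replicates, against 0.22 to 0.35 in the other groups. In these bulk samples, fewer cells of a type and less RNA per cell cannot be told apart.

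Promoters of the members held ISRE letters in a larger share than promoters over the whole genome. The search looked for GAAA, any 2 bases and GAAA again on both strands, with overlapping matches counted, in a window from 250 bases before to 50 after the annotated start (RefSeq, build GRCm38.p6). A match stood in 18 of 33 members with an entry (54.5%), against 3.99% of 27025 genes in the table. The GAS letters TTCNNNGAA stood in 9 of 33 members (27.3%), against 9.55% of all genes. The 5 promoters printed here, 5′ to 3′ on the gene's strand, belong to members of 3 expression patterns described in the results. Isg15 and Ifit1 had levels that followed Col1a1. Gbp1 and Gbp2 were lower in H3.1K36M than in H3.1WT, and Oas1a was lower in shSuv39h2 than in shNC. The patterns overlap, since Gbp1 and Gbp2 were also lower in shSuv39h2 than in shNC. Capitals mark the ISRE matches, which lie from 14 bases before the start (Oas1a) to 137 bases before it (Gbp1) and overlap each other in Isg15 and Oas1a. A match is a description of the letters and not a measured binding site.
Isg15, chr4:156200769-156201068, minus strand: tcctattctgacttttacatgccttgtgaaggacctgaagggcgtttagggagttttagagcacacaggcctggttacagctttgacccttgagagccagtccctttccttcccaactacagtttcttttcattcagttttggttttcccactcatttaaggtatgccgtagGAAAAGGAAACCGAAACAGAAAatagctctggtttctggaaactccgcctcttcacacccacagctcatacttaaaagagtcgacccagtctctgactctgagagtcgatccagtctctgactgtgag
Ifit1, chr19:34640639-34640938, plus strand: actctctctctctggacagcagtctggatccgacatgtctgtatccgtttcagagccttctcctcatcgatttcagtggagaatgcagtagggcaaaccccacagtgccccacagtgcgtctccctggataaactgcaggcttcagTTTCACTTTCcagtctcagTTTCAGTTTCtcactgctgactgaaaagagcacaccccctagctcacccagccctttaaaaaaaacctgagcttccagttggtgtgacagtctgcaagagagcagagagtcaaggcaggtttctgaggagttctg
Gbp1, chr3:142594597-142594896, plus strand: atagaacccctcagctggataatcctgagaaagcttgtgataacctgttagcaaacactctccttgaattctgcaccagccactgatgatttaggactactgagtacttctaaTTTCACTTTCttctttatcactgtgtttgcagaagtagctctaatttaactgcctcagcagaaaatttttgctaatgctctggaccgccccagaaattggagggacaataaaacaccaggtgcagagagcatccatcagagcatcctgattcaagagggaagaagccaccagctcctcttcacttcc
Gbp2, chr3:142620413-142620712, plus strand: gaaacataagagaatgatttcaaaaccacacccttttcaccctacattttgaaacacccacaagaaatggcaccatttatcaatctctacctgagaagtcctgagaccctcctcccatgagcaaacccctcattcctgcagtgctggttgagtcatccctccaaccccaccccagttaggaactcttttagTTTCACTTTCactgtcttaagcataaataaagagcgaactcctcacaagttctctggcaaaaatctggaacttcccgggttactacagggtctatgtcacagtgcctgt
Oas1a, chr5:120907476-120907775, minus strand: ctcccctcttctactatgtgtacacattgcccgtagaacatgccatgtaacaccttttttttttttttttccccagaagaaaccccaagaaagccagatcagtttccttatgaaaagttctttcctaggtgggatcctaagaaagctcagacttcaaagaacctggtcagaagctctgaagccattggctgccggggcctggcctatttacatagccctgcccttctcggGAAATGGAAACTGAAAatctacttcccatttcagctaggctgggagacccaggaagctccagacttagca

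The members ran from barely detected to among the more abundant transcripts of these cells. By mean FPKM over the 12 libraries, 5 members were at 100 or more, 6 between 10 and 100, 24 between 1 and 10, and 5 under 1. None was at 0 in any library, and 26 had at least 1 FPKM in every library. The genes that start the pathway were nearly silent: of 18 interferon ligand genes none passed the filter of 1 FPKM in 2 libraries, and the highest value was 0.22 FPKM (Ifnl2). Values that low rest on few fragments, since 1 FPKM of a 2 kb transcript stood for roughly 43 to 55 fragments per library. The filter kept 37 of the 40 members for testing and left out Ifih1, Mx1 and Rsad2.

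The most abundant members were the Ifitm genes, Bst2 and B2m. Ifitm1, Ifitm2 and Ifitm3 encode small transmembrane proteins that block the entry of viruses into cells, and Ifitm1 and Ifitm3 are also known as germ cell markers. Ifitm2 was at 387 and 425 FPKM in H3.1K9M, 406 and 384 in H3.1K36M and 472 and 399 in H3.1WT, and at 452 and 477 in shSuv39h1, 459 and 513 in shSuv39h2 and 452 and 476 in shNC. Ifitm1 was at 213 and 261 FPKM in H3.1K9M, 216 and 218 in H3.1K36M and 286 and 251 in H3.1WT, and at 181 and 197 in shSuv39h1, 238 and 282 in shSuv39h2 and 232 and 240.2 in shNC. Ifitm3 was at 313 and 212 FPKM in H3.1K9M, 173 and 150.5 in H3.1K36M and 150.1 and 162 in H3.1WT, and at 103 and 96.4 in shSuv39h1, 144 and 205 in shSuv39h2 and 175 and 219 in shNC. Ifitm3 was highest in H3.1K9M replicate 1 and lowest in the shSuv39h1 libraries, while the highest Ifitm2 library was 1.34 times the lowest. Bst2, which tethers budding virus particles to the cell, was at 228 and 192 FPKM in H3.1K9M, 198 and 188 in H3.1K36M and 156 and 147 in H3.1WT, and at 161 and 165 in shSuv39h1, 156 and 169.6 in shSuv39h2 and 261 and 196 in shNC. B2m, the light chain of major histocompatibility complex (MHC) class I, was at 274 and 124 FPKM in H3.1K9M, 210.0 and 208 in H3.1K36M and 113 and 144 in H3.1WT, and at 120.0 and 92.1 in shSuv39h1, 142 and 138 in shSuv39h2 and 164 and 182 in shNC. None of the 3 Ifitm genes passed the test in any comparison.

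The RNA sensors, their signalling ligase and the transcription factors were expressed at modest levels. Ddx58, which encodes the sensor RIG-I, ranged over 5.42 to 9.82 FPKM, Dhx58 (LGP2) over 1.24 to 2.06 and Ifih1 (MDA5) over 0.16 to 1.01. Trim25, a ubiquitin ligase that activates RIG-I, ranged over 22.6 to 40.2 FPKM. Irf1 was at 18.3 and 18.9 FPKM in H3.1K9M, 14.3 and 14.5 in H3.1K36M and 20.2 and 22.8 in H3.1WT, and at 10.8 and 12.9 in shSuv39h1, 7.76 and 10.9 in shSuv39h2 and 14.2 and 18.4 in shNC. Irf3, the factor that switches on interferon genes after sensing, was at 12 and 12.2 FPKM in H3.1K9M, 14.3 and 13.8 in H3.1K36M and 12.1 and 12 in H3.1WT, and at 11.8 and 11.9 in shSuv39h1, 13.4 and 14.9 in shSuv39h2 and 7.48 and 10.3 in shNC. Irf3 was thus lowest in the shNC libraries. Irf7, its partner in amplifying type I interferon, was at 3.83 and 1.23 FPKM in H3.1K9M, 3.09 and 2.57 in H3.1K36M and 1.05 and 1.77 in H3.1WT, and at 1.56 and 1.22 in shSuv39h1, 2.25 and 2.68 in shSuv39h2 and 3.49 and 2.73 in shNC. Irf9 was at 8.78 and 5.29 FPKM in H3.1K9M, 7.74 and 8.44 in H3.1K36M and 4.57 and 5.97 in H3.1WT, and at 5.27 and 4.23 in shSuv39h1, 5.83 and 7.11 in shSuv39h2 and 6.03 and 6.96 in shNC. Stat2 was at 7.31 and 10.0 FPKM in H3.1K9M, 9.89 and 9.35 in H3.1K36M and 6.74 and 7.91 in H3.1WT, and at 7.26 and 9.39 in shSuv39h1, 7.69 and 9.07 in shSuv39h2 and 11.9 and 9.22 in shNC. The highest library was 3.66 times the lowest for Irf7, 2.08 times for Irf9 and 1.77 times for Stat2.

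A group of 11 members followed Col1a1, with a Pearson r of at least 0.7 across the 12 libraries and r above 0 in each arm. They were Ifih1 and the tested members Ifit1, Isg15, B2m, Ifit2, Ddx58, Irf9, Ifi44, Ifit3, Rtp4 and Irgm1, so 10 of 37 tested members did so, against 8.95% of all tested genes. The members just inside the limit were Irgm1 (r = 0.70) and Rtp4 (0.73), and those just outside were Ifitm3 and Oasl2 (both 0.69). Their level thus went with that of a feeder gene across libraries. Whether their transcripts came from the fibroblasts or from the stem cells beside them was not tested.

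Isg15, a ubiquitin-like protein that is attached to other proteins in infected cells, was at 49.3 and 13.6 FPKM in H3.1K9M, 36.9 and 35 in H3.1K36M and 9.66 and 24.1 in H3.1WT, and at 14.6 and 8.15 in shSuv39h1, 17 and 23.6 in shSuv39h2 and 20.7 and 30.1 in shNC. In 5 of 6 groups, all but shSuv39h2, the library with more Col1a1 also had more Isg15. That number of groups was 6 for B2m and Ifih1, 5 for Ifi44 and Rtp4, and 3 for Ifit3. It was 4 for Ifit1, Ifit2, Ddx58, Irf9 and Irgm1, and it was not counted over all tested genes. Ifit1, which binds viral RNA that lacks host cap methylation, was at 5.38 and 1.25 FPKM in H3.1K9M, 4.28 and 4.84 in H3.1K36M and 0.927 and 2.29 in H3.1WT, and at 1.25 and 0.663 in shSuv39h1, 1.5 and 1.83 in shSuv39h2 and 1.3 and 3.26 in shNC. Its relatives Ifit2 and Ifit3 lie beside it on chromosome 19. Ifit2 was at 2.22 and 1.29 FPKM in H3.1K9M, 1.54 and 1.65 in H3.1K36M and 0.978 and 1.68 in H3.1WT, and at 1.21 and 1.06 in shSuv39h1, 1.3 and 1.71 in shSuv39h2 and 1.11 and 1.38 in shNC. Ifit3 was at 2.22 and 0.415 FPKM in H3.1K9M, 2.62 and 2.87 in H3.1K36M and 0.26 and 0.997 in H3.1WT, and at 0.479 and 0.494 in shSuv39h1, 0.579 and 1.05 in shSuv39h2 and 1.1 and 1.87 in shNC. Ifit1 and Ifit3 shared the low values of H3.1WT replicate 1 and the shSuv39h1 libraries and the high values of the H3.1K36M libraries and H3.1K9M replicate 1. Usp18, the protease that removes Isg15 from proteins, ranged over 1.81 to 7.43 FPKM and had r = 0.64.

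**Figure D1:**
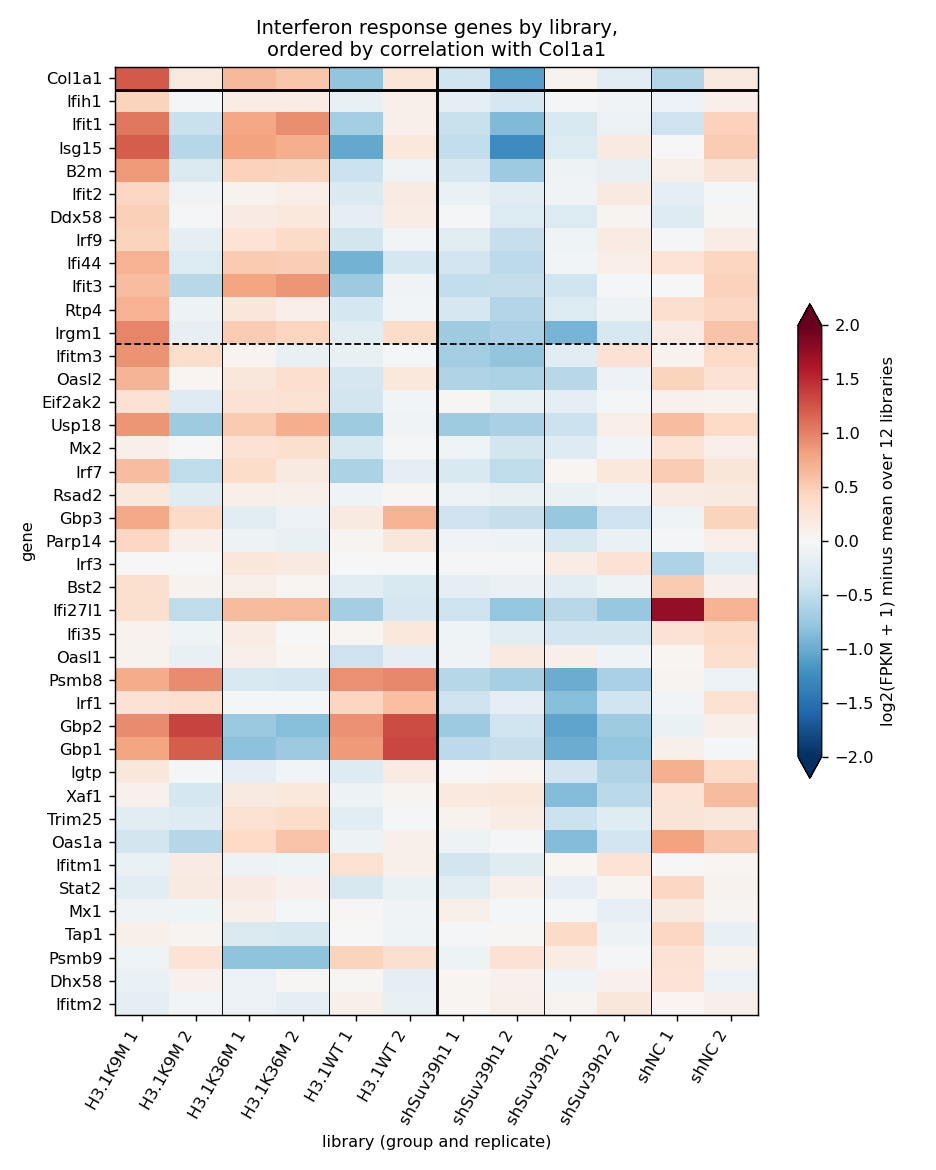
Log2(FPKM + 1) of Col1a1 (top row) and the 40 members in each of 12 libraries, less the gene's mean over the libraries, with rows ordered by falling r with Col1a1. The 11 members above the dashed line share the high values of H3.1K9M replicate 1 and the low values of shSuv39h1 replicate 2, while the rows of Gbp1, Gbp2 and Psmb8 are low in the H3.1K36M, shSuv39h1 and shSuv39h2 libraries.

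Across the 12 libraries, Ifit1 had r = 0.90 and Spearman rho = 0.86 with Col1a1, with permutation adjusted p = 0.00244 for r over 13108 genes. The same measures were r = 0.87 and rho = 0.85 for Isg15 (permutation adjusted p = 0.00565) and r = 0.87 and rho = 0.83 for B2m (permutation adjusted p = 0.00800). With Ifit2, Ddx58 and Irf9, 6 members passed after adjustment by either measure, among 1552 genes that passed by r and 1107 by rho. Ifih1, whose level was under the filter, had r = 0.95 and rho = 0.96, each with the smallest p that 100000 permutations can give (1e-05). For Ifi44, Ifit3, Rtp4 and Irgm1, r was 0.70 to 0.74 with adjusted p from 0.0517 to 0.0760. The permutations ignored that libraries come in groups of 2, so these p-values may be too small. In the overexpression arm alone r lay between 0.80 and 0.94 for all 11, and in the knockdown arm between 0.26 (Irgm1) and 0.92 (Ifih1), over 6 libraries each. Exact permutation p within the arm was 0.00139 (Isg15) to 0.0278 (Ifit3) in the overexpression arm. In the knockdown arm it was 0.0111 for Ifih1, 0.0361 for Ifit1, 0.0583 for Isg15 and 0.0819 for B2m, and up to 0.613 (Irgm1).

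The libraries farthest from the median Col1a1 were H3.1K9M replicate 1 and shSuv39h1 replicate 2. Without them, r remained at or above 0.70 for Ifih1 (0.89), Ifit1 (0.83), Isg15 (0.74), Ifit2 (0.73), Irf9, Ddx58 and Ifit3 (each 0.71). It was 0.698 for B2m, 0.61 for Ifi44, 0.49 for Irgm1 and 0.40 for Rtp4, so for those 4 an r of 0.70 rested on these libraries. The slope on Col1a1 within groups, which leaves differences between groups out, was above 0 and passed the limma test for 4 members, against 5.39% of all tested genes with a positive slope. It was 1.19 log2 units of Isg15 per log2 unit of Col1a1 (SE 0.19, adjusted p = 0.00667) and 0.99 for Ifit1 (SE 0.16, adjusted p = 0.0059). For B2m it was 0.59 (SE 0.13, adjusted p = 0.0259) and for Ifi44 0.54 (SE 0.14, adjusted p = 0.0451). The call of Ifi44 was lost in 12 of 17 alternatives and that of B2m in 5 of 18 (no filter on low values, and without either library of H3.1K9M or of shSuv39h1). No member passed without either H3.1K9M library, which leaves that group no difference between replicates, and 13 passed without either shSuv39h2 library, 12 with a positive slope and Psmb9 with a negative one. Of the other pathway genes, the interferon gamma receptor subunit Ifngr2 (slope 0.68, SE 0.09, adjusted p = 0.00231) and the DNA-sensing adaptor Tmem173 (STING; slope 0.50, SE 0.12, adjusted p = 0.0379) were among 10 genes with a positive slope that passed in 5 other lists. These 10 were 2 of 10 tested genes of receptors and kinases, 2 of 13 of sensing and induction and 1 of 16 inhibitors. The rest were 4 of 29 further interferon-stimulated genes and 1 of 17 antigen presentation genes. Over all tested genes 5.39% passed with a positive slope. In addition, 1 gene of sensing and induction passed with a negative slope, against 222 of 13109 tested genes. For comparison, 23 of 28 tested fibroblast markers, Col1a1 itself included, passed with a positive slope.

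**Figure D2:**
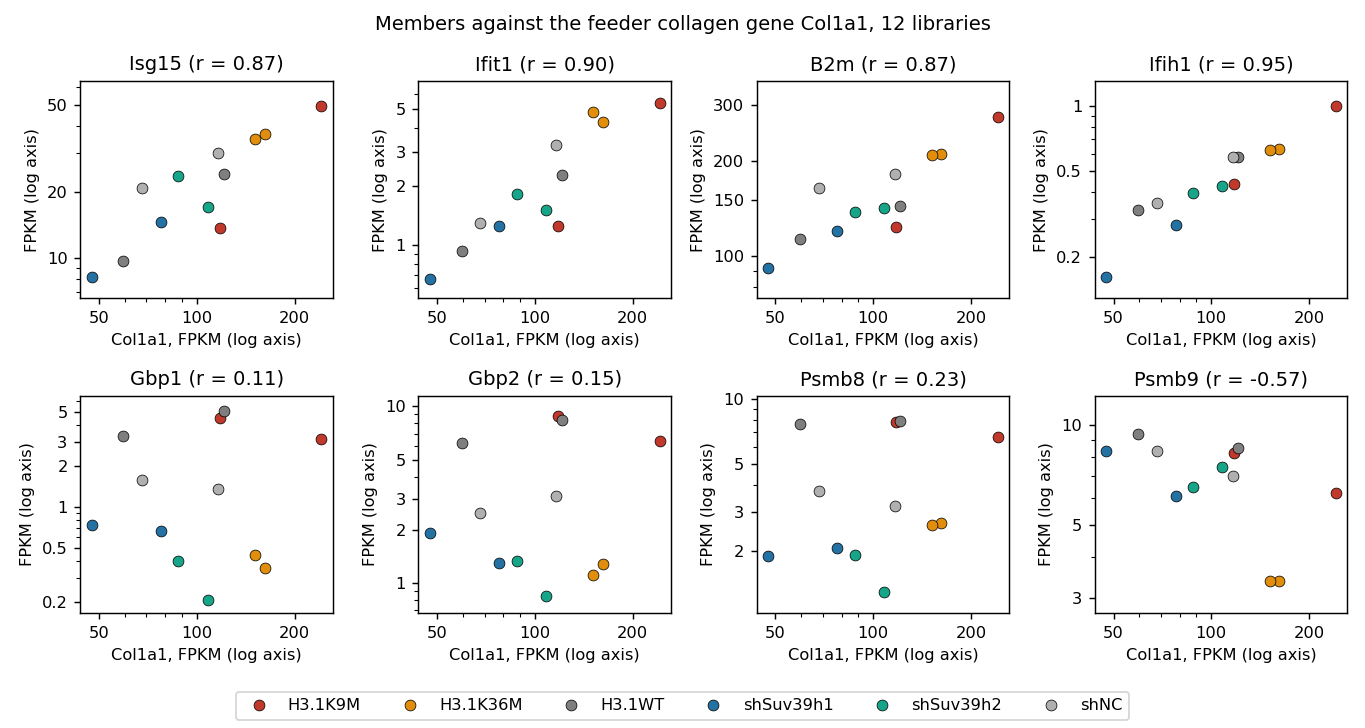
FPKM of 8 members against FPKM of Col1a1 in 12 libraries (both axes logarithmic), coloured by group. Isg15, Ifit1, B2m and Ifih1 climb with Col1a1 (r = 0.87, 0.90, 0.87 and 0.95), while Gbp1, Gbp2, Psmb8 and Psmb9 have r of 0.11, 0.15, 0.23 and -0.57.

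The members with an r well under 0.7 included the guanylate-binding protein genes Gbp1 (r = 0.11) and Gbp2 (0.15), the immunoproteasome genes Psmb8 (0.23) and Psmb9 (-0.57), and Oas1a, Xaf1 and Trim25 (-0.05, 0.02 and -0.01). Ifitm2 ran against Col1a1 over the 12 libraries (r = -0.74, rho = -0.76, permutation adjusted p for r = 0.0522), with r = -0.89 in the overexpression arm and 0.07 in the knockdown arm. ISRE letters stood in 7 of 10 promoters of members that followed Col1a1 and in 11 of 23 of the others. GAS letters stood in 1 of those 10 and in 8 of those 23.

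In H3.1K36M against H3.1WT, the guanylate-binding protein genes Gbp1 and Gbp2 and the immunoproteasome genes Psmb8 and Psmb9 were lower, and Trim25 and Ifi44 were higher. These 6 of 37 tested members passed, 2 higher and 4 lower, against 4.84% of all tested genes (3.1% higher, 1.74% lower). The median over the 37 members was 0.34 on the log2 scale (0.14 without H3.1WT replicate 1), against 0.03 over all tested genes, and 12 of 37 members had a log2 fold change below 0, against 44% of all tested genes.

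Gbp1 and Gbp2 encode large GTPases that attack the vacuoles of intracellular pathogens, and they are neighbours on chromosome 3 with Gbp3. Gbp1 (142594847 to 142619179, GRCm38, named Gbp2b in the annotation) was at 0.354 and 0.442 FPKM in H3.1K36M, against 3.32 and 5.06 in H3.1WT and 3.14 and 4.5 in H3.1K9M. Its mean in H3.1K36M was 9.51% of that in H3.1WT (log2 fold change -1.87, SE 0.18, adjusted p = 0.00059, limma). Gbp2 (142620602 to 142638008) was at 1.28 and 1.11 FPKM in H3.1K36M, against 6.18 and 8.42 in H3.1WT and 6.38 and 8.81 in H3.1K9M (log2 fold change -1.90, SE 0.20, adjusted p = 0.000855 against H3.1WT). For both genes the 2 H3.1K36M libraries lay below all 4 other libraries of the arm, which adds no support, since the calls came from these libraries. How many of all tested genes separate in this way was not counted. Gbp3 was at 1.16 and 1.33 FPKM in H3.1K36M, against 1.87 and 3.07 in H3.1WT and 3.26 and 2.29 in H3.1K9M, and did not pass (log2 fold change -0.61, SE 0.22, adjusted p = 0.161 against H3.1WT). The Gbp genes are similar in sequence, and the sources used here do not say how shared reads were split between them.

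Psmb8 and Psmb9 encode catalytic subunits that replace those of the standard proteasome and favour peptides for MHC class I, and Tap1 encodes a subunit of the transporter that carries these peptides. The 3 genes adjoin each other on chromosome 17 (34181987 to 34201454, GRCm38), and the annotated spans of Psmb9 and Tap1 overlap. Psmb8 was at 2.67 and 2.62 FPKM in H3.1K36M, against 7.6 and 7.91 in H3.1WT and 6.66 and 7.77 in H3.1K9M (log2 fold change -1.26, SE 0.13, adjusted p = 0.000804 against H3.1WT). Psmb9 was at 3.39 and 3.39 FPKM in H3.1K36M, against 9.38 and 8.52 in H3.1WT and 6.21 and 8.2 in H3.1K9M (log2 fold change -1.18, SE 0.16, adjusted p = 0.00384 against H3.1WT). Tap1 was at 4.64 and 4.55 FPKM in H3.1K36M, against 5.88 and 5.56 in H3.1WT, with adjusted p = 0.466. Psmb8 and Psmb9 thus had means of 34.1% and 37.9% of the H3.1WT mean, and Tap1 did not pass. The calls of Gbp1, Gbp2, Psmb8 and Psmb9 held in every alternative in which they were tested, with adjusted p of at most 0.0472.

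Trim25 was at 38.5 and 40.2 FPKM in H3.1K36M, against 26.6 and 30.5 in H3.1WT and 26.6 and 25.7 in H3.1K9M (log2 fold change 0.45, SE 0.09, adjusted p = 0.0232 against H3.1WT), and the call was lost without H3.1WT replicate 1 or either H3.1K36M library, with only the groups of the arm in the fit, and with the fibroblast marker mean in the fit. Ifi44 was at 2.28 and 2.2 FPKM in H3.1K36M, against 0.187 and 0.781 in H3.1WT (log2 fold change 1.15, SE 0.28, adjusted p = 0.0485), and lost its call in 17 of 19 alternatives (adjusted p up to 0.352). Ifi44 was among the members that followed Col1a1, and in the knockdown arm it was at 0.739 and 0.582 FPKM in shSuv39h1 and 1.18 and 1.49 in shSuv39h2, against 1.74 and 2.05 in shNC. The fibroblast marker sum was 1502 and 1454 FPKM in H3.1K36M, against 654 and 1164 FPKM in H3.1WT, and all 28 tested fibroblast markers had a log2 fold change above 0. The macrophage gene C1qa was called higher, the only 1 of 6 tested haematopoietic and macrophage markers, at 1.38 and 1.69 FPKM in H3.1K36M, against 0.219 and 0.18 FPKM in H3.1WT (limma adjusted p = 0.0101). Of those 6 markers, 5 had a log2 fold change above 0 and 1 below 0. The latter was the more abundant Cd68, at 7.01 and 6.53 FPKM in H3.1K36M, against 11.4 and 11.6 in H3.1WT. With the fibroblast marker mean in the fit, the median of the 37 members was 0.0026 and 5 members passed, all lower: Gbp1, Gbp2, Gbp3, Psmb8 and Psmb9. In that fit 213 of 13109 tested genes were called lower and 353 higher. The count of 6 became 12 without either H3.1K9M library, a group outside this comparison that shares its estimate of the spread. The members added there, all higher, were B2m, Eif2ak2, Ifi27l1, Ifit3, Irf7 and Usp18. More of all tested genes were called there as well.

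**Figure D3:**
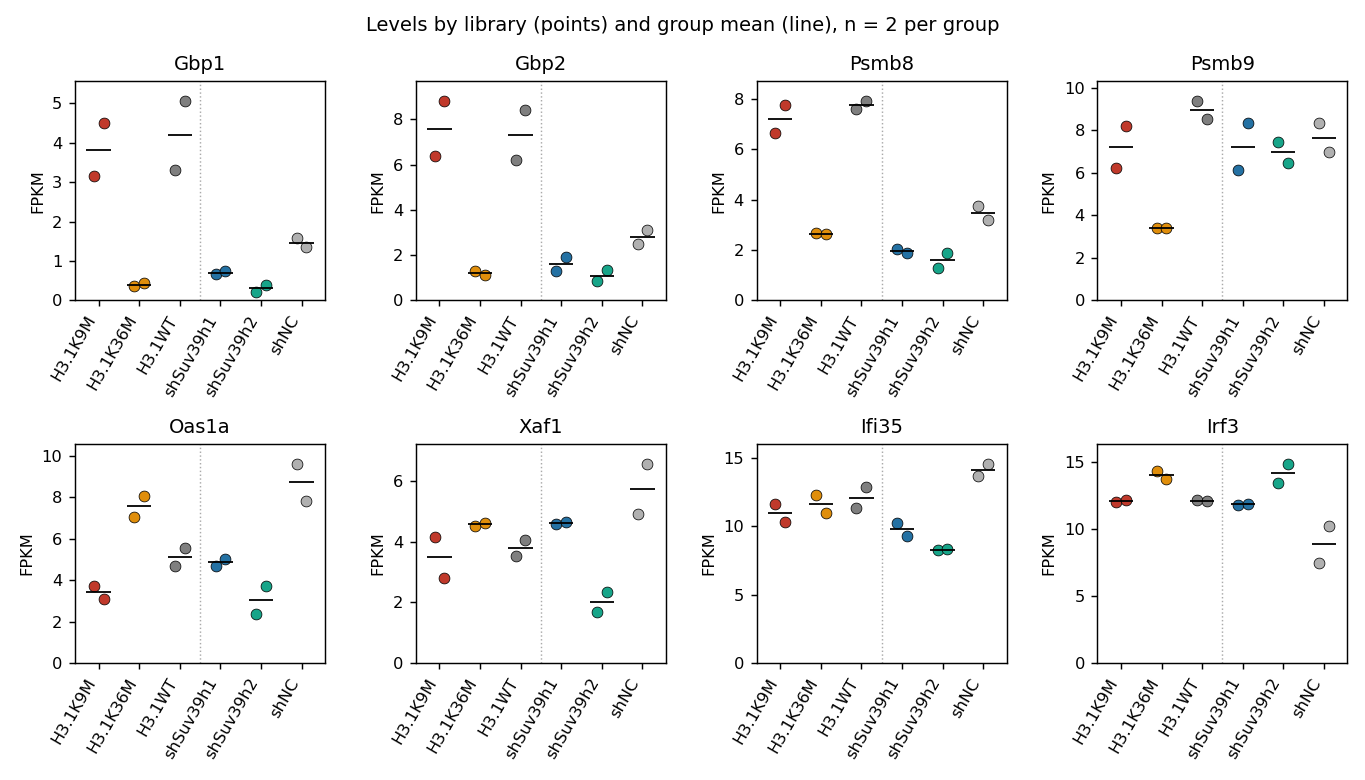
FPKM (linear axis from 0) of 8 members by library (points) with the group mean (line), 2 libraries per group, overexpression arm on the left and knockdown arm on the right. Gbp1, Gbp2 and Psmb8 sit lower in both H3.1K36M libraries than in H3.1K9M and H3.1WT, and Oas1a, Xaf1 and Ifi35 sit lower in both shSuv39h2 libraries than in shNC.

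Set against H3.1K9M in place of H3.1WT, the H3.1K36M lines gave 6 called members of 37, 2 higher and 4 lower, against 8.24% of all tested genes (5.57% higher, 2.67% lower). Gbp1 (log2 fold change -1.77, SE 0.18, adjusted p = 0.000485), Gbp2 (log2 fold change -1.95, SE 0.20, adjusted p = 0.000445), Psmb8 (log2 fold change -1.17, SE 0.13, adjusted p = 0.000713) and Psmb9 (log2 fold change -0.89, SE 0.16, adjusted p = 0.00965) were lower in H3.1K36M. Oas1a, an oligoadenylate synthetase that activates RNase L, was at 7.04 and 8.08 FPKM in H3.1K36M, against 3.72 and 3.1 in H3.1K9M and 4.7 and 5.57 in H3.1WT (log2 fold change 0.96, SE 0.17, adjusted p = 0.0091 against H3.1K9M). Trim25 was also higher (log2 fold change 0.57, SE 0.09, adjusted p = 0.00552). This comparison shares its H3.1K36M libraries with the one against H3.1WT. The count was 3 without H3.1K36M replicate 2 (Gbp1, Gbp2 and Psmb8) and 11 without H3.1K9M replicate 1, and Psmb9 also lost its call without H3.1K36M replicate 1.

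In H3.1K9M against H3.1WT, no member passed limma after adjustment, against 0.313% of all tested genes, and 5 had an unadjusted p under 0.05, of which 4 were higher (4.96% of all tested genes) and 1 was lower (6.22% of all tested genes). Of these, Bst2 was at 228 and 192 FPKM in H3.1K9M, against 156 and 147 in H3.1WT (adjusted p = 0.248). Ifitm3, Ifi44 and Rtp4 also had higher means in H3.1K9M, and Oas1a a lower mean. The members' median log2 fold change was 0.23, against -0.01 over all tested genes. Leaving out replicate 1 of H3.1WT gave a median of 0.07, leaving out replicate 2 of H3.1WT gave 0.38, and leaving out replicate 1 of H3.1K9M gave -0.03. The 2 H3.1K9M libraries differed from each other: Isg15 was at 49.3 FPKM in replicate 1 and 13.6 in replicate 2, Usp18 at 7.43 and 1.82, and Ifi44 at 2.69 and 0.877. Their fibroblast marker sums were 2206 and 1063 FPKM in the same order. Without H3.1K9M replicate 2, 6 members passed, all higher (B2m, Ifi44, Ifitm3, Irf7, Rtp4 and Usp18), and without replicate 1 none did. Over all tested genes, too, more were called without replicate 2 than in the full fit. With the fibroblast marker mean in the fit the members' median was -0.03. Ifi35 was at 11.6 and 10.3 FPKM in H3.1K9M, against 11.3 and 12.9 in H3.1WT, and Xaf1 at 4.16 and 2.82 FPKM in H3.1K9M, against 3.52 and 4.07 in H3.1WT. Igtp was at 4.8 and 3.87 FPKM in H3.1K9M, against 3.16 and 4.59 in H3.1WT. In H3.1K36M, Ifi35 was at 12.3 and 10.9 FPKM, Xaf1 at 4.53 and 4.62 and Igtp at 3.35 and 3.8.

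In shSuv39h2 against shNC, 11 members fell and 1 rose, so that 12 of 37 passed (32.4%), against 10% of all tested genes (5.35% higher, 4.69% lower). The 11 that fell were the effectors Oas1a and Bst2, the GTPase genes Gbp1, Gbp2 and Igtp, the immunoproteasome gene Psmb8, the factor Irf1, Trim25, and Xaf1, Ifi35 and Ifi27l1. Irf3 rose. For each of the 12, the libraries of shSuv39h2 and shNC did not overlap, which adds no support, since the calls came from these libraries. The share of all tested genes without overlap was not counted. The median of the 37 members was -0.31, against 0.04 over all tested genes, and 31 members had a log2 fold change below 0, against 42.7% of all tested genes.

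Oas1a was at 2.36 and 3.71 FPKM in shSuv39h2 and 4.71 and 5.02 in shSuv39h1, against 9.62 and 7.83 in shNC (log2 fold change -1.28, SE 0.17, adjusted p = 0.00278 for shSuv39h2). Xaf1, which binds the apoptosis inhibitor XIAP, was at 1.68 and 2.35 FPKM in shSuv39h2 and 4.59 and 4.65 in shSuv39h1, against 4.91 and 6.58 in shNC (log2 fold change -1.16, SE 0.17, adjusted p = 0.00426 for shSuv39h2). Ifi35, an interferon-induced leucine zipper protein, was at 8.23 and 8.3 FPKM in shSuv39h2 and 10.2 and 9.29 in shSuv39h1, against 13.7 and 14.6 in shNC (log2 fold change -0.71, SE 0.10, adjusted p = 0.00368 for shSuv39h2). The shSuv39h2 means of these 3 genes were 34.8%, 35.1% and 58.6% of the shNC means. These were the only calls of this comparison that held in every alternative in which they were tested. The other oligoadenylate synthetase relatives did not pass: Oasl1 ranged over 0.344 to 1.26 FPKM, and Oasl2 was at 0.625 and 1.18 FPKM in shSuv39h2, against 2.22 and 1.91 in shNC.

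Among the GTPases, Gbp1 was at 0.206 and 0.399 FPKM in shSuv39h2 and 0.659 and 0.741 in shSuv39h1, against 1.57 and 1.35 in shNC (log2 fold change -0.92, SE 0.18, adjusted p = 0.0135 for shSuv39h2). Gbp2 was at 0.845 and 1.33 FPKM in shSuv39h2 and 1.3 and 1.92 in shSuv39h1, against 2.49 and 3.11 in shNC (log2 fold change -0.87, SE 0.20, adjusted p = 0.0235 for shSuv39h2). Igtp, an immunity-related GTPase of the same kind of vacuole defence, was at 2.81 and 2.29 FPKM in shSuv39h2 and 4.04 and 4.12 in shSuv39h1, against 7.2 and 5.47 in shNC (log2 fold change -1.04, SE 0.17, adjusted p = 0.00637 for shSuv39h2). As for every call of this comparison, the shSuv39h2 and shNC libraries of these 3 genes did not overlap, which adds no support to the calls. Irgm1, another GTPase of that family, was at 3.83 and 6.37 FPKM in shSuv39h2, against 9.29 and 12.7 in shNC, and Gbp3 at 0.501 and 0.899 FPKM in shSuv39h2, against 1.39 and 2.43 in shNC. Neither of them passed. Psmb8 was at 1.29 and 1.9 FPKM in shSuv39h2 and 2.06 and 1.88 in shSuv39h1, against 3.76 and 3.2 in shNC (log2 fold change -0.79, SE 0.13, adjusted p = 0.00647 for shSuv39h2). Psmb9 was at 7.48 and 6.48 FPKM in shSuv39h2, against 8.33 and 6.99 in shNC, and Tap1 at 8.02 and 5.46 FPKM in shSuv39h2, against 8.25 and 5.22 in shNC, and these did not pass. In the knockdown arm, then, Psmb8 passed and its 2 neighbours did not.

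The transcription factors split. Irf1, which activates GTPase and immunoproteasome genes after interferon gamma, was lower in shSuv39h2 (log2 fold change -0.75, SE 0.16, adjusted p = 0.0191). Irf3 was higher, at 13.4 and 14.9 FPKM in shSuv39h2, against 7.48 and 10.3 in shNC (log2 fold change 0.63, SE 0.12, adjusted p = 0.0118). Irf7, Irf9 and Stat2 did not pass. The RIG-I ligase gene Trim25 was at 22.6 and 25.8 FPKM in shSuv39h2, against 37.2 and 36.3 in shNC (log2 fold change -0.58, SE 0.09, adjusted p = 0.00526). Ifi27l1, a gene of a mitochondrial interferon-induced protein family, was at 11.8 and 10.1 FPKM in shSuv39h2 and 13.1 and 10.0 in shSuv39h1, against 62.6 and 29.5 in shNC (log2 fold change -1.89, SE 0.34, adjusted p = 0.00897 for shSuv39h2). The 2 shNC libraries thus differed widely for Ifi27l1, and both lay above the other 10 libraries. In the overexpression arm Ifi27l1 was at 22.4 and 12.2 FPKM in H3.1K9M and 28 and 28 in H3.1K36M, against 10.7 and 13.9 in H3.1WT. Bst2 was just inside the threshold in shSuv39h2 (adjusted p = 0.0488) and lost its call in 12 alternatives.

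The fibroblast marker sum was 1126 and 887 FPKM in shSuv39h2, against 785 and 1139 FPKM in shNC, so the groups overlapped, and the median log2 fold change of the fibroblast markers was 0.08. With the fibroblast marker mean in the fit, 16 members passed, 15 lower and 1 higher. Calls over all 13109 tested genes rose too, to 1008 lower and 1244 higher, against 615 and 701 without it. The count of 12 depended on the libraries. Fewer members passed without either shSuv39h2 library, and fewer of all tested genes did as well. The members' median was -0.26 without shSuv39h2 replicate 1 and -0.46 without replicate 2. Gbp1 and Gbp2 lost their calls without either of these libraries, and Irf1 without replicate 1. Gbp1 also lost its call without shNC replicate 1, Gbp2 without either shNC library and Irf1 without shNC replicate 2. With only the groups of the arm in the fit, Irf1 and Irf3 lost theirs.

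In shSuv39h1 against shNC, 35 of 37 members had a log2 fold change below 0, against 38.7% of all tested genes, and none passed limma after adjustment. All genes together gave 0.145% called. At an unadjusted p under 0.05, 20 members (54.1%) were lower and 1, Irf3, was higher, against 2.8% of all tested genes lower and 7.76% higher. The members' median was -0.49, against 0.04 over all tested genes. Ifi27l1 had the smallest adjusted p (log2 fold change -1.82, SE 0.34, adjusted p = 0.0885), followed by Ifi35 (log2 fold change -0.49, SE 0.10, adjusted p = 0.129) and Ifitm3 (log2 fold change -0.97, SE 0.20, adjusted p = 0.135). The shSuv39h1 libraries had 14.6 and 8.15 FPKM of Isg15 and 1.25 and 0.663 of Ifit1, while the shNC libraries had 20.7 and 30.1 FPKM of Isg15 and 1.3 and 3.26 of Ifit1. The fibroblast marker sum was 855 and 511 FPKM in shSuv39h1, against 785 and 1139 FPKM in shNC, so the groups overlapped. None of 28 tested fibroblast markers had a log2 fold change above 0 (median -0.43). With the fibroblast marker mean in the fit the members' median was -0.40. The part of feeder RNA in the single values was not tested. Ifi27l1 and Rtp4 passed without either H3.1K9M library, and Ifi27l1 without shNC replicate 2. Both knockdown comparisons share the shNC libraries.

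**Figure D4:**
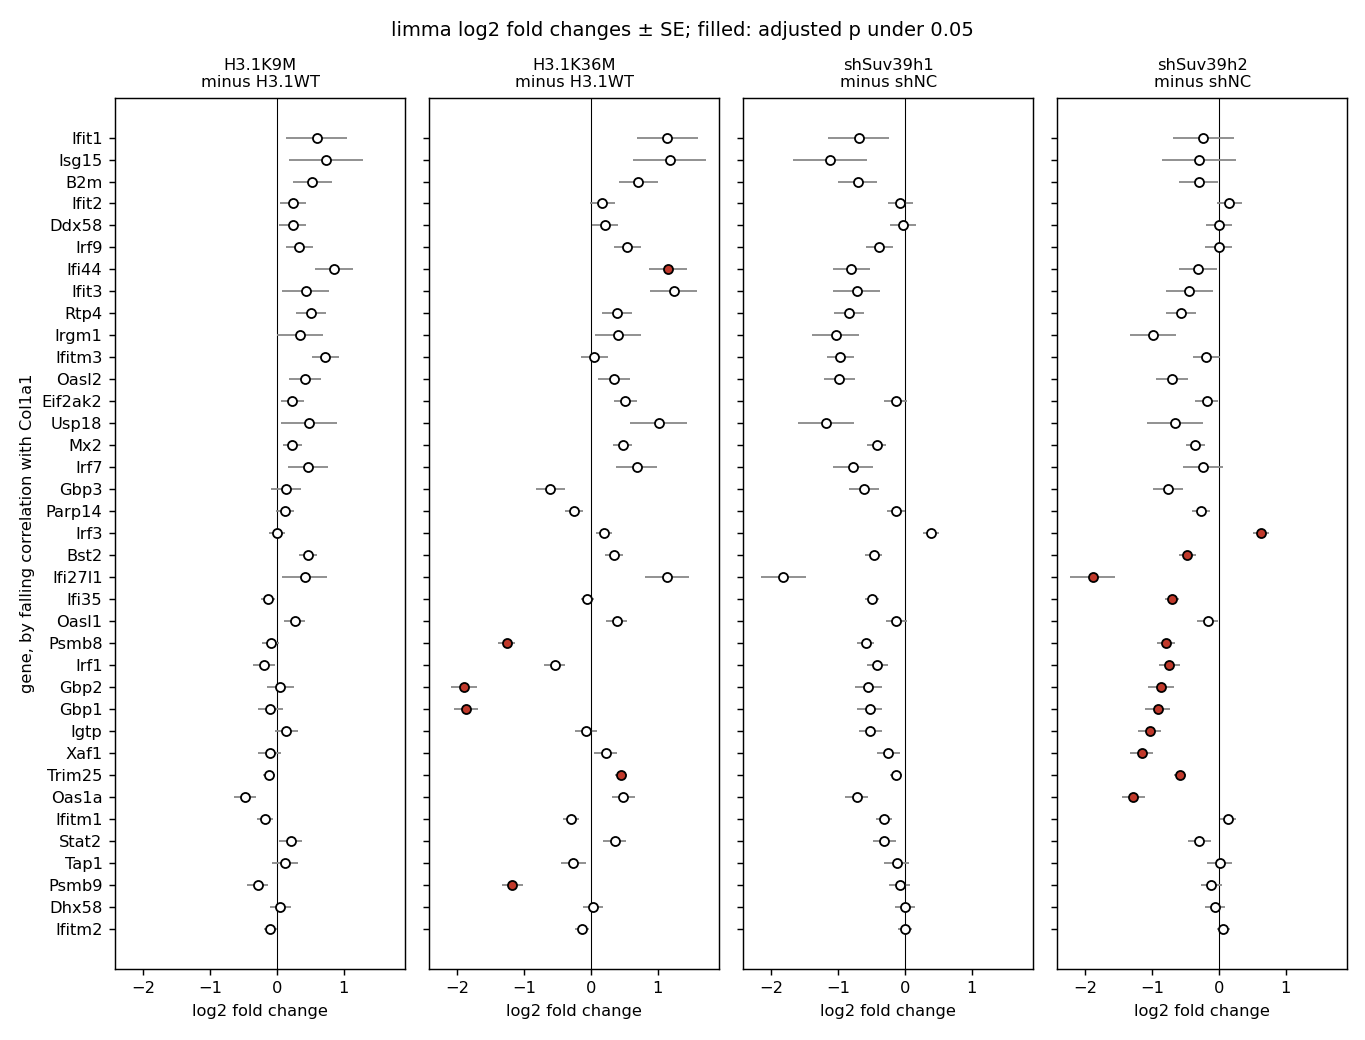
Log2 fold change with its SE for the 37 tested members in 4 comparisons, from the limma fit on log2(FPKM + 1), rows ordered by falling r with Col1a1; filled points have an adjusted p under 0.05. No point is filled for H3.1K9M or shSuv39h1, 6 are filled for H3.1K36M and 12 for shSuv39h2, and 35 of 37 points lie below 0 for shSuv39h1.

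Set directly against shSuv39h2, shSuv39h1 had 2 called members, both higher, against 6.56% of all tested genes (4.56% higher). Xaf1 had 4.59 and 4.65 FPKM in the shSuv39h1 libraries, against 1.68 and 2.35 FPKM in the shSuv39h2 libraries (log2 fold change 0.91, SE 0.17, adjusted p = 0.0176). Trim25 had 32.3 and 34.4 FPKM in the shSuv39h1 libraries, against 22.6 and 25.8 FPKM in the shSuv39h2 libraries (log2 fold change 0.45, SE 0.09, adjusted p = 0.0232). Xaf1 lost its call without either shSuv39h1 library or without shSuv39h2 replicate 1. Trim25 lost it without those libraries, without either H3.1K36M library and with only the groups of the arm in the fit. Without either H3.1K9M library 4 members passed, with Ifitm1 and Ifitm3 lower in shSuv39h1. For the other 9 members that fell in shSuv39h2, and for Irf3, a difference between the knockdowns did not pass this test.

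Between the 2 control lines 1 member passed: Psmb8 was at 7.6 and 7.91 FPKM in H3.1WT, against 3.76 and 3.2 in shNC (log2 fold change 0.97, SE 0.13, adjusted p = 0.0191), with 0.336% of all tested genes called (0.214% higher). The members as a set were lower in H3.1WT than in shNC, with a median log2 fold change of -0.32, against 0.02 over all tested genes. Of 37 members 26 had a log2 fold change below 0, against 5796 of 13109 tested genes. Gbp1 was at 3.32 and 5.06 FPKM in H3.1WT, against 1.57 and 1.35 in shNC (log2 fold change 1.06, SE 0.18, adjusted p = 0.0534), and Gbp2 at 6.18 and 8.42 FPKM in H3.1WT, against 2.49 and 3.11 in shNC (log2 fold change 1.12, SE 0.20, adjusted p = 0.0603), and these were just outside. The levels of Gbp1, Gbp2 and Psmb8 in shNC therefore lay between those in H3.1K36M and H3.1WT. Psmb8 lost its call without any 1 library of H3.1WT, H3.1K36M or shSuv39h1 or without shNC replicate 1. Without either H3.1K9M library 4 members passed (Gbp1, Gbp2 and Psmb8 higher and Ifi27l1 lower in H3.1WT), and without shNC replicate 2 also 4 (Irf3 and Psmb8 higher, Bst2 and Ifi27l1 lower). The arm and the construct cannot be told apart in this comparison.

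Other genes of the pathway were receptors, sensors and inhibitors. The 10 genes of receptors and kinases, all tested, and the 13 tested genes of sensing and induction gave none in H3.1K9M or H3.1K36M against H3.1WT, nor in shSuv39h1 against shNC, where 0.313%, 4.84% and 0.145% of all tested genes were called in that order. In shSuv39h2 against shNC, with 10% of all tested genes called, only the receptor kinase gene Tyk2 was called among them (10.9 and 10.9 FPKM in shSuv39h2, against 8.54 and 8.58 in shNC, log2 fold change 0.32, SE 0.08, adjusted p = 0.0392). Of 16 genes known to restrain the pathway, Rnaseh2c, a subunit of the RNase that removes RNA from DNA, was higher in shSuv39h2 (68.5 and 78.6 FPKM, against 40.0 and 38.5 in shNC, log2 fold change 0.89, SE 0.09, adjusted p = 0.000572).

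Of 17 further antigen presentation genes, 5 were lower in H3.1K36M than in H3.1WT and none was higher, against 1.74% lower and 3.1% higher of all tested genes. Psme1 and Psme2 encode the subunits of the proteasome activator PA28. Psme1 was at 49.7 and 51.3 FPKM in H3.1K36M, against 76.6 and 77.5 in H3.1WT (log2 fold change -0.60, SE 0.08, adjusted p = 0.00428). Psme2 was at 51 and 52.3 FPKM in H3.1K36M, against 88.3 and 88.1 in H3.1WT (log2 fold change -0.76, SE 0.07, adjusted p = 0.000489). Psmb10, the remaining catalytic subunit of the immunoproteasome, was at 29.7 and 25.7 FPKM in H3.1K36M, against 38.8 and 43 in H3.1WT (log2 fold change -0.55, SE 0.13, adjusted p = 0.0471). The class I genes H2-Q7 (log2 fold change -1.38, SE 0.24, adjusted p = 0.0125) and H2-Q4 (log2 fold change -0.95, SE 0.23, adjusted p = 0.0483) were also lower, and their sequences are close to those of other class I genes. Psmb8, Psmb9, Psmb10, Psme1 and Psme2 were thus each called lower in H3.1K36M. In shSuv39h2, 2 of the 17 were lower than in shNC, Psme2 (log2 fold change -0.54, SE 0.07, adjusted p = 0.00293) and the chaperone gene Canx (log2 fold change -0.54, SE 0.07, adjusted p = 0.00326), and none was higher, against 4.69% lower and 5.35% higher of all tested genes.

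Of 29 tested further interferon-stimulated genes, 1 was higher and 1 lower in H3.1K36M than in H3.1WT, against 3.1% higher and 1.74% lower of all tested genes. In shSuv39h2, 1 was higher and 6 lower than in shNC, against 5.35% higher and 4.69% lower of all tested genes. Oas1g, a close relative of Oas1a beside it on chromosome 5, was at 3.62 and 3.63 FPKM in H3.1K36M, against 1.69 and 1.95 in H3.1WT (log2 fold change 0.71, SE 0.14, adjusted p = 0.0208). It was at 1.06 and 1.41 FPKM in shSuv39h2, against 4.04 and 2.85 in shNC (log2 fold change -0.98, SE 0.14, adjusted p = 0.0036). Reads may be shared between these 2 relatives. Pml, a nuclear body protein, moved the other way in both: lower in H3.1K36M (log2 fold change -0.32, SE 0.07, adjusted p = 0.0335) and higher in shSuv39h2 (log2 fold change 0.49, SE 0.07, adjusted p = 0.00368). The other genes that fell in shSuv39h2 were Parp12 (log2 fold change -0.90, SE 0.14, adjusted p = 0.00487), Trim21, Irgm2, Slfn5 and the chemokine gene Cxcl10 (log2 fold change -0.85, SE 0.17, adjusted p = 0.0124). In shSuv39h1 and H3.1K9M none of the 29 passed.

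The remaining members gave no call. Mx1 and Mx2 belong to a family of dynamin-like GTPases that trap viral particles, and the annotation types Mx2 as a polymorphic pseudogene. Mx1 ranged over 0.0405 to 0.315 FPKM and Mx2 over 0.327 to 1.13. Rsad2, which encodes viperin, ranged over 0.145 to 0.563 FPKM. Eif2ak2, the RNA-dependent kinase PKR that halts translation, ranged over 4.79 to 8.32 FPKM. Parp14, an ADP-ribosyltransferase, ranged over 1.17 to 2.63 FPKM, and Rtp4 over 0.909 to 3.64. Mx1 and Rsad2 were not tested, and none of the others passed in any of the 7 comparisons.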

How the data were processed

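The values are FPKM per gene symbol, deposited by the authors as 1 column for each of 12 libraries, and the unit is inferred from the values. Tools named in the submitters' processing notes are Cuffdiff 2.2.1 and TopHat2 2.0.13, and the build is mm10. The sources used here do not give their settings, the annotation, the scaling between libraries or the use of strand. FPKM of similar or overlapping genes depends on how reads were divided. Per the labels' protocols, mRNA was captured and both NEBNext Ultra and TruSeq v2 kits were used, without saying for which libraries.

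From the deposited FPKM, log2(FPKM + 1) was tested with limma 3.58.1 (R 4.3.3, intensity trend) in 1 fit over 12 libraries with a mean per group. On this scale the fold change of a low gene is understated. Of 23354 shared genes, 13109 reached 1 FPKM in 2 or more libraries and were tested. p-values are two-sided and adjusted by Benjamini-Hochberg over all tested genes, with a threshold of 0.05. All groups share an estimate of the spread, so leaving out a library of a group outside a comparison can move its calls. The slope on Col1a1 came from the same fit with Col1a1 as a covariate. Correlations used 100000 permutations of the 12 libraries without regard to group, and their p-values were adjusted over 13108 genes.

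Depth was approximated from steps between low values in genes with a single transcript, where 31.2% to 39.6% of values per library were whole within a tolerance of 0.05 (chance gives 10%), so it is rough. The fits and correlations were tested on simulated data. Values are given for members called in any test, the 8 with the highest mean, and their family members. Other members are given by range, and called genes of other pathway lists by smallest p. The members, lists and tests were chosen with earlier results of these data known. Alternatives were no filter on low values, a 5 FPKM filter, a pseudocount of 0.1, quantile and median-of-ratios scaling, fits within an arm, a replicate block, a feeder covariate and leaving out each library.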

Additional observations from a re-analysis of the deposited data

How the results depend on the processing

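No called gene changed direction under any alternative, but medians over the 37 members did. For H3.1K9M against H3.1WT, 0.23 became -0.03 with the feeder covariate or without H3.1K9M replicate 1. For H3.1K36M against H3.1K9M, 0.06 became -0.26 without H3.1K9M replicate 2. For shSuv39h1 against shSuv39h2, -0.03 became 0.01 with the feeder covariate and 0.02 without shSuv39h2 replicate 2. Each named pair of gene and comparison was counted once per alternative. Of these outcomes 1013 kept their side of the threshold, 94 lost a call and 8 gained one. The 1013 include pairs of H3.1K9M against H3.1WT and shSuv39h1 against shNC. Those pairs were not called in the main fit, so they had no call to lose. The counts of called members that moved beyond 1.5 times were as follows. For H3.1K36M against H3.1K9M, 6 members became 10 with the feeder covariate. There 1192 of 13109 tested genes were called higher and 763 lower, against 730 and 350 in the main fit. For shSuv39h1 against shSuv39h2, 2 became 1 with a filter of 5 FPKM or a fit within the arm and 4 with quantile normalization. For H3.1WT against shNC, 1 became 2 with quantile normalization, 0 with only these groups in the fit and 5 with the feeder covariate. With that covariate 101 of all tested genes were called higher and 74 lower, against 28 and 16 in the main fit. For the slope, 4 became 2 with a filter of 5 FPKM and 9 with the feeder marker mean in place of Col1a1. The 10 tested members that followed Col1a1 (8.95% of all tested genes did) became 18 in the overexpression arm alone, against 15.3% of all tested genes. They became 4 in the knockdown arm alone, against 7.42%, and 6 without the 2 farthest libraries, against 8.42%.

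Leaving out each library in turn gave 0 to 6 called members for H3.1K9M, 4 to 12 for H3.1K36M and 3 to 11 for H3.1K36M against H3.1K9M. It gave 0 to 2 for shSuv39h1, 4 to 16 for shSuv39h2, 0 to 4 for shSuv39h1 against shSuv39h2, 0 to 4 for H3.1WT against shNC and 0 to 13 for the slope. The lone library of a group is then assumed to vary like the other groups. Counts of calls over all tested genes also moved in these fits. Apart from the values where fewer libraries or genes entered, the cause of these shifts was not tested.

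The replicate numbers share only a number: deviations of same-numbered libraries correlated between -0.384 and 0.517 over 15 pairs of groups. With the replicate number as a block, 3 members passed in H3.1WT against shNC instead of 1, and the other counts stayed within 1.5 times.

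Ifih1, Mx1 and Rsad2 were tested only without the filter on low values, where Ifih1 passed for the slope. Few fragments limit what can be seen of members under 1 FPKM.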
